A study of Mus musculus with 6 samples.

Results

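Primordial germ cells are the founders of eggs and sperm. Expression of 10 genes known for their roles in these cells was examined in whole mouse embryos at embryonic day 8.5 that lacked Fzd2 and Fzd7 together or Fzd7 alone. The genes were chosen by name: Prdm1, Prdm14, Tfap2c, Dppa3, Ifitm1, Ifitm3, Alpl, Kit, Nanos3 and Dnd1. Through the platform annotation, 9 of the 10 were measured, out of 18193 genes in all, and Nanos3 was not measured here. Each gene was read from the probe set with a single gene symbol that had the highest mean over the 6 arrays, and its other probe sets are given beside it.

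The double knockout embryos carried the genotype Fz2-/-; Fz7-/- and the single knockout embryos Fz2+/+; Fz7-/-, with 3 arrays of each, so both groups lacked Fzd7 (Fz7 in the labels). Both were of mixed sex on a mixed C57BL6/129 background, and no treatment is stated. Neither wild-type embryos nor a knockout of Fzd2 by itself were analysed here. The labels do not say how many embryos went into 1 array or name their litters. The p-values therefore measure the spread between these arrays, which may be technical in part. All values are log2 expression after RMA (robust multi-array average), a normalization that gives the arrays a common distribution, and a difference of 1 is a doubling. Where 3 values of a group are given, they are those of its replicates 1, 2 and 3 in this order.

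In the mouse, germ cells are set aside at the base of the allantois from epiblast cells that receive BMP signals from the extraembryonic tissues, with Wnt signalling making the cells competent to respond. A small group of transcription factors then silences the somatic programme and keeps pluripotency genes such as Pou5f1 (Oct4) active, after expression of these genes has declined in the soma. At this stage the cells move from the allantois base into the hindgut and form a very small part of the embryo. The comparison asked whether germ cell genes move with Pou5f1 between the genotypes. In RNA from whole embryos, fewer cells of a type and less RNA per cell cannot be told apart.

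The arrays followed their labels at Fzd2, and 1 array stood apart. Fzd2, a Frizzled receptor for Wnt ligands, read 7.30, 7.69 and 7.63 in the double knockout, against 9.86, 9.99 and 10.01 in the single knockout (limma adjusted p = 0.00567). It was the only gene of the 18193 past the adjusted p threshold of 0.05. Fzd7, deleted in both groups, averaged 4.89 ± 0.10 in the double knockout and 4.92 ± 0.01 in the single knockout (SD, n = 3 each), and since its probe sets may lie outside the deleted part it checks nothing. Double knockout replicate 1 correlated with the other arrays across genes at 0.986 to 0.990, and those correlated with each other at 0.997 to 0.998. Differences that moved by over 1.5 times without it are given both ways.

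None of the 9 germ cell genes passed the test between the genotypes. By limma, 0 of 9 passed the threshold, against 0.0055% of all genes, and 0 of 9 had an unadjusted p under 0.05, against 4.96% of all genes. That count was 1 of 9, with 0 adjusted calls, with the replicate number as a block (Ifitm1, unadjusted p = 0.0155) and without double knockout replicate 2 or single knockout replicate 3. The groups overlapped for each of the 9, whereas they did not overlap for 11.4% of all genes. The double knockout mean was higher for 7 of 9, against 46.2% of all genes. The differences ran from -0.06 for Prdm14 to 0.27 for Ifitm1, with a median of 0.12, beside a median of -0.01 over all genes. The 95% confidence intervals reached at most 1.57-fold higher, for Tfap2c, and at lowest 0.73-fold, for Alpl.

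Pou5f1 was set beside them. It read 10.77, 6.69 and 7.32 in the double knockout, against 6.51, 5.31 and 5.92 in the single knockout. Each double knockout array lay above every single knockout array, and replicate 1 lay far above the other two. The difference was 2.35 (SE 1.04, 95% interval -0.15 to 4.84) and did not pass by limma (adjusted p = 0.872). The interval of Pou5f1 took in those of several germ cell genes, so the arrays do not fix whether its difference is larger, or by how much.

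**Figure D1:**
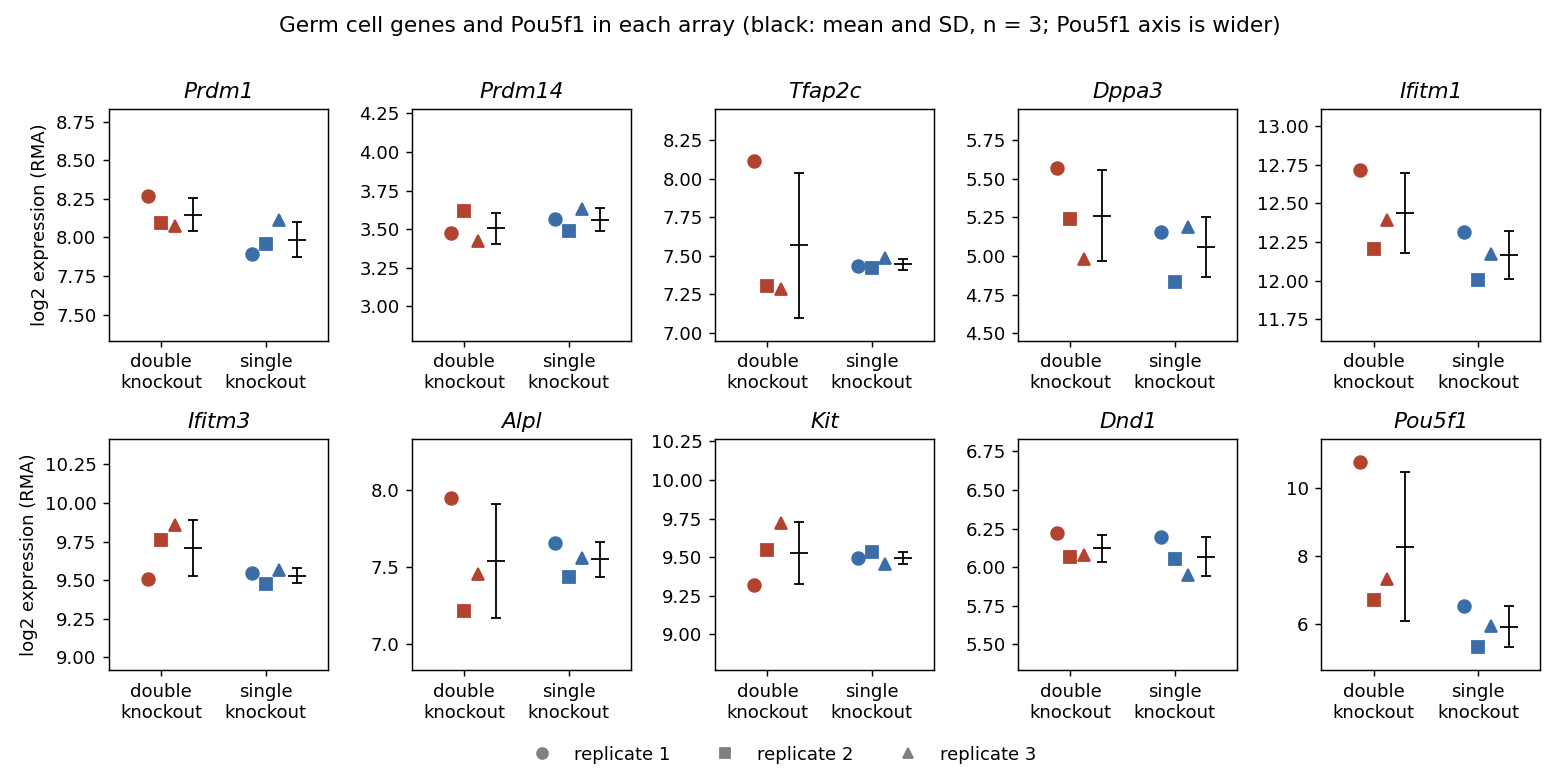
Log2 expression (RMA) of the 9 measured germ cell genes and of Pou5f1 in each array, with the double knockout at the left and the single knockout at the right of each panel. Symbols are single arrays, black bars are the mean and SD of 3 arrays, and every panel but that of Pou5f1 spans the same height. The groups overlap for each germ cell gene, while the 3 double knockout values of Pou5f1, from 6.69 to 10.77, lie above the single knockout values of 5.31 to 6.51.

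The transcription factors that specify germ cells come first. Prdm1 encodes Blimp1, the repressor that silences the somatic programme. It read 8.27, 8.09 and 8.08 in the double knockout, against 7.89, 7.96 and 8.11 in the single knockout. Single knockout replicate 3 lay above double knockout replicates 2 and 3, and the difference was 0.16 (95% interval -0.05 to 0.37, limma adjusted p = 0.872), or 0.10 without double knockout replicate 1. Prdm1 was 1 of 2 members, with Ifitm1, above the single knockout mean in all 3 double knockout arrays, as Pou5f1 was. That held for 16.7% of all genes.

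Prdm14, which sustains pluripotency genes in the germ line, read 3.48, 3.61 and 3.42 in the double knockout, against 3.57, 3.49 and 3.63 in the single knockout. The groups were intermixed. Only 5.25% of genes read lower on average than its probe set, so a change in so dim a signal would be hard to see after RMA.

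Tfap2c encodes the transcription factor AP-2 gamma, which acts with Prdm1 and Prdm14 and is also made in trophoblast. Its brightest probe set read 8.11, 7.31 and 7.29 in the double knockout, against 7.43, 7.42 and 7.49 in the single knockout. Replicate 1 of the double knockout lay above all single knockout arrays and replicates 2 and 3 lay below all of them. The range within the double knockout was 0.82, against 0.07 within the single knockout. The difference was 0.12 (95% interval -0.41 to 0.65) with all arrays and -0.15 (95% interval -0.29 to -0.01) without double knockout replicate 1, and it passed over all genes in neither case (limma adjusted p = 0.932 and 0.727).

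The remaining 2 probe sets of Tfap2c were also highest in double knockout replicate 1. One read 7.21, 6.77 and 6.85 in the double knockout against 6.77, 6.82 and 6.78 in the single knockout. The other read 6.99, 6.26 and 6.33 in the double knockout against 6.45, 6.50 and 6.58 in the single knockout. They did not repeat each other for replicates 2 and 3, which lay below all single knockout arrays on the second and around them on the first.

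The surface and identity markers were next. Dppa3, also called Stella, is a chromatin-binding protein that marks founder germ cells and protects maternal DNA methylation in the zygote. It read 5.57, 5.24 and 4.98 in the double knockout, against 5.16, 4.83 and 5.19 in the single knockout. Double knockout replicates 1 and 2 were the highest of the 6 arrays and replicate 3 lay among the single knockout values. The difference was 0.20 (95% interval -0.20 to 0.61, limma adjusted p = 0.877), and 0.05 without double knockout replicate 1.

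Ifitm1 and Ifitm3 encode small interferon-induced membrane proteins of the Fragilis family, which is raised in cells competent to become germ cells. Ifitm1 was high throughout, at 12.72, 12.20 and 12.39 in the double knockout, against 12.31, 12.004 and 12.18 in the single knockout. Its double knockout arrays stood in the same order as for Pou5f1, replicate 1, then 3, then 2, and the single knockout arrays also did. Alpl shared both orders, and the share of all genes that have both was not counted. The groups overlapped through double knockout replicate 2. The difference of 0.27 (95% interval -0.08 to 0.62) was the largest of the 9 with all arrays and did not pass by limma (adjusted p = 0.872). Without double knockout replicate 1 it was 0.13 (95% interval -0.13 to 0.40).

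Ifitm3 had another pattern. It read 9.51, 9.76 and 9.86 in the double knockout, against 9.55, 9.47 and 9.57 in the single knockout. Replicates 2 and 3 of the double knockout lay above all single knockout arrays, but replicate 1, the array with the highest Pou5f1, lay among them. The difference was 0.18 (95% interval -0.06 to 0.42, limma adjusted p = 0.872) with all arrays. Without that array it was 0.28 (95% interval 0.12 to 0.44, limma adjusted p = 0.701), the largest of the 9 in that setting. Together with Tfap2c this made 2 of 9 members at an unadjusted p under 0.05 in that setting, in opposite directions, against 6.67% of all genes.

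Alpl encodes tissue-nonspecific alkaline phosphatase, the enzyme whose activity is stained to find germ cells. It read 7.95, 7.22 and 7.45 in the double knockout, against 7.66, 7.43 and 7.55 in the single knockout. Replicate 1 of the double knockout was the highest array and replicate 2 the lowest of all 6. The mean difference was -0.01 (95% interval -0.45 to 0.43), and -0.21 (95% interval -0.46 to 0.03) without double knockout replicate 1.

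The genes for survival and upkeep of germ cells are Kit and Dnd1. Kit is the receptor for stem cell factor and is also made in blood progenitors. Its brighter probe set read 9.32, 9.55 and 9.72 in the double knockout, against 9.50, 9.53 and 9.45 in the single knockout. The double knockout held both the lowest and the highest array, and the array with the highest Pou5f1 had the lowest Kit. The difference was 0.03 (95% interval -0.22 to 0.29) there and -0.10 on the dimmer probe set, which read 5.24, 5.18 and 5.38 in the double knockout against 5.28, 5.49 and 5.34 in the single knockout. The direction of Kit therefore depended on the probe set. Without double knockout replicate 1 the brighter one gave 0.14.

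Dnd1 encodes an RNA-binding protein without which germ cells are lost. It read 6.22, 6.06 and 6.08 in the double knockout, against 6.20, 6.05 and 5.95 in the single knockout. The values were intermixed, with a difference of 0.05 (95% interval -0.15 to 0.26, limma adjusted p = 0.917), or 0.0055 without double knockout replicate 1.

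**Figure D2:**
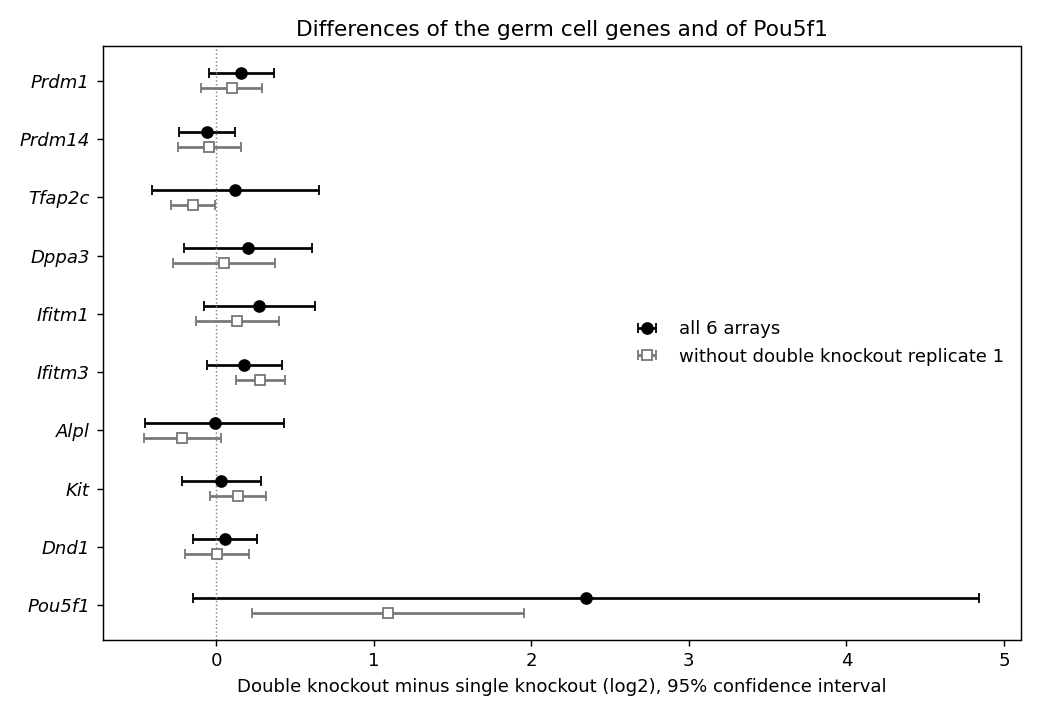
Differences between double knockout and single knockout (log2, horizontal axis) for the 9 germ cell genes and Pou5f1, with 95% confidence intervals from limma, for all 6 arrays (filled) and without double knockout replicate 1 (open). The germ cell genes lie between -0.06 and 0.27 with all arrays, while Pou5f1 lies at 2.35, or 1.09 without that array.

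Set against Pou5f1 array by array, the germ cell genes came closest to its pattern in double knockout replicate 1. In that array Pou5f1 lay 4.86 above the single knockout mean. There 6 of 9 members had their highest value of the 6 arrays, against 25.3% of all genes, and 3 of 9 lay over 0.5 above the single knockout mean, against 3.46% of all genes. Those 3 were Tfap2c (0.67), Ifitm1 (0.55) and Dppa3 (0.51). Prdm14, Ifitm3 and Kit lay below the single knockout mean in this array, by -0.09, -0.02 and -0.18.

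In the remaining double knockout arrays the members lay within 0.33 of the single knockout mean while Pou5f1 lay 0.78 above it in replicate 2 and 1.40 above it in replicate 3. None of 9 members lay over 0.5 above the single knockout mean in either, against 0.269% and 0.539% of all genes. The median over the members was 0.28 in replicate 1, 0.05 in replicate 2 and 0.01 in replicate 3. Without replicate 1, 6 of 9 members had a higher mean in the double knockout, against 46.7% of all genes, 0 of 9 passed, against 0.0055%, and the median difference was 0.05. Pou5f1 then differed by 1.09 (95% interval 0.23 to 1.95, limma adjusted p = 0.707). The order of the double knockout arrays seen for Pou5f1 held for 3 of 9 members, Ifitm1, Dnd1 and Alpl, and for 21.8% of all genes.

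Many marker genes of other tissues, though not all, were at their extremes in double knockout replicate 1 as well, on a scale that has no true zero. Visceral endoderm, the absorptive layer of the yolk sac, had all 9 of 9 markers at their highest there. Their summed level (log2 of the summed linear values) was 15.11 in that array, 12.61 to 12.63 in the other double knockout arrays and 12.56 to 12.996 in the single knockout. Apoa2, an apolipoprotein gene, and Rhox5, a homeobox gene of extraembryonic tissue, lay 2.08 and 2.19 above the single knockout mean there, and 0.17 and 0.21 above it without that array. Of the trophoblast markers 6 of 10 were measured and 3 of 6 were highest there, with summed levels of 10.47 in that array, 9.33 to 9.47 in the other double knockout arrays and 9.47 to 9.73 in the single knockout. Elf5, a trophoblast stem cell factor, read 4.72, 4.85 and 5.15 in the double knockout, against 5.13, 5.43 and 5.31 in the single knockout. Hand1 differed by 0.13, or 0.03 without replicate 1. Cdx2 and Cts7, named after their values were seen, lay 0.94 and 3.68 above the single knockout mean in replicate 1. Elf5 was at its lowest there, and Ascl2 and Tpbpa differed from the single knockout mean by only -0.04 and 0.02. Cdx2, the brightest of the 6 and so a large part of their sum, is also a gene of the posterior embryo. The part of these tissues in the values of Tfap2c, Ifitm1, Dppa3 and Alpl was not tested.

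Blood, vessel and embryonic body markers were low in the same array. Primitive blood markers, 6 of 7 measured, summed to 9.05, 15.08 and 11.57 in the double knockout, against 14.53 to 15.05 in the single knockout. Klf1 and Gata1, regulators of red cells, differed by -1.20 and -0.45, or -0.88 and -0.26 without replicate 1. Kit, also a gene of blood progenitors, was lowest in replicate 1 but highest in replicate 3. In replicate 3 the globin genes of this list, Klf1 and Gata1 were low too. Tal1, also of this list, was not: it differed from the single knockout mean by -0.17 in replicate 1 and -0.02 in replicate 3. Endothelial markers were at their lowest in replicate 1 for 5 of 5 genes, against 29.7% of all genes and 1 of 9 germ cell members (Kit). Emcn and Cdh5 differed by -0.90 and -0.52, or -0.25 and 0.04 without that array. Neural, somite and heart markers were lowest there for 6 of 6, and summed to 11.18, 12.43 and 12.34 in the double knockout against 12.35 to 12.46 in the single knockout. Meox1 and Zic1, of somite and dorsal neural tube, differed by -0.58 and -2.45, or -0.45 and -1.39 without replicate 1. No marker of these 5 lists passed over all genes by limma, and their part in the members' values was not tested.

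**Figure D3:**
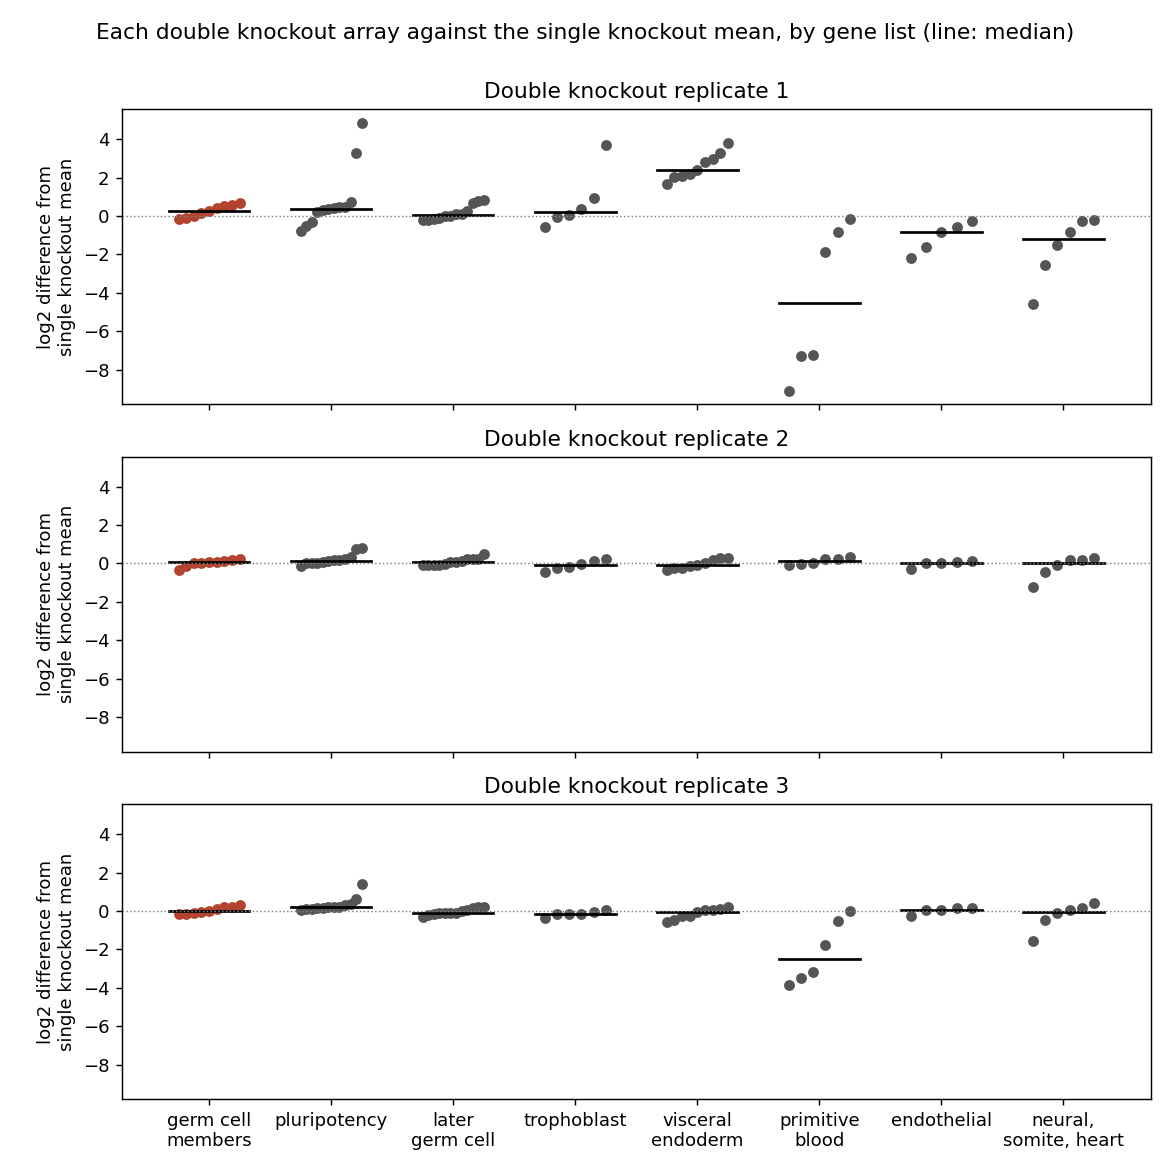
Difference of each gene from the single knockout mean (log2, vertical axis) in each of the 3 double knockout arrays, by gene list, with 1 point per gene and a line at the median. The germ cell genes lie within 0.67 of the single knockout mean in every array, while visceral endoderm markers have a median of 2.39 and primitive blood markers one of -4.56 in replicate 1.

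Further genes of germ cell biology were read from lists chosen by function. A list of 12 pluripotency genes included Pou5f1 itself. Of these, 0 passed by limma, 10 were higher and 2 lower, and the median was 0.22. Without double knockout replicate 1, 0 passed, 12 were higher and 0 lower, against 46.7% of all genes higher, and the median was 0.16. In that setting 3 of 12 (Pou5f1, Tdgf1 and Dppa4) had an unadjusted p under 0.05 by limma, against 6.67% of all genes. The array left out was the lowest of the 6 for Sox2, Otx2 and Tdgf1, at -0.31, -0.50 and -0.79 from the single knockout mean. Tdgf1 thus lay on the side opposite to Pou5f1 there. With all arrays, Dppa4, a chromatin factor of pluripotent and germ cells, had the smallest unadjusted p of the list. It read 5.54, 5.39 and 5.45 in the double knockout, against 5.27, 5.21 and 5.21 in the single knockout. The groups did not overlap, as for 11.4% of all genes, and the difference was 0.23 (SE 0.06, limma adjusted p = 0.872). Nanog was picked with its values known. It read 6.91, 3.88 and 4.01 in the double knockout against 3.53, 3.43 and 3.94 in the single knockout, with a difference of 1.30, or 0.31 without replicate 1. It was thus high in the same array as Pou5f1 and near the single knockout in the other double knockout arrays. Nanog was dim, with 16.2% of genes reading lower on average. In replicate 1, 8 of the 12 genes of this list were at their highest of the 6 arrays, against 25.3% of all genes. There 3 of the 12 were at their lowest, against 29.7% of all genes.

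Other early germ cell genes were split. Of 15 measured, 0 passed by limma, 8 were higher and 7 lower, with a median of 0.03, or -0.0081 without double knockout replicate 1. Fut4, a fucosyltransferase of the kind that makes the SSEA-1 surface antigen, read 6.77, 6.91 and 6.92 in the double knockout, against 7.04, 7.12 and 7.28 in the single knockout. Klf2, a pluripotency factor regained in germ cells, read 5.61, 5.57 and 5.53 in the double knockout against 5.67, 5.79 and 5.88 in the single knockout. Both lay lower in every double knockout array, the side opposite to Pou5f1, by -0.28 (SE 0.08) and -0.21 (SE 0.07), and neither passed (limma adjusted p = 0.872 for each). Cbx7, named after its values were seen, also had groups without overlap, but on the side of Pou5f1. It read 7.57, 6.85 and 6.86 in the double knockout against 6.53, 6.82 and 6.56 in the single knockout. Its difference was 0.46, or 0.22 without double knockout replicate 1 (limma adjusted p = 0.872 and 0.770). In replicate 1, 6 of the 15 genes were at their highest of the 6 arrays and 5 at their lowest, against 25.3% and 29.7% of all genes. Groups without overlap were seen for 11.4% of all genes.

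The signals that induce germ cells lay close to the single knockout. Of 11 measured genes for BMP ligands, receptors, Smads, Wnt3 and Eomes, 0 passed by limma, 8 were higher and 3 lower, with a median of 0.04, or 0.08 without double knockout replicate 1. Eomes, a T-box factor of the streak and trophoblast, differed by 0.19, or 0.11 without double knockout replicate 1. Wnt3, the ligand that readies the epiblast, differed by 0.12, or 0.10 without that array. Their groups did not overlap, as for 11.4% of all genes. Both were dim, with 20.2% of genes reading lower than Eomes and 7.84% lower than Wnt3. Somatic genes that Prdm1 and its partners repress numbered 7 measured, of which 0 passed, 6 were higher and 1 lower, with a median of 0.26, or 0.04 without double knockout replicate 1. Among them Dnmt3b, a DNA methyltransferase, differed by 0.49 and Hoxb1, a Hox gene of hindbrain and streak, by 0.26, or 0.21 and 0.09 without that array.

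Genes of later germ cells, which come on in and around the gonad, were dim, with gene means from 3.17 to 5.35. Of 12 measured, 0 passed by limma, 9 were higher and 3 lower, and the median was 0.02, or 0.06 without double knockout replicate 1. Ddx4, the RNA helicase Vasa, read 4.57, 4.22 and 3.53 in the double knockout, against 3.84, 3.59 and 3.80 in the single knockout. Rnf17 differed by 0.27, or 0.06 without double knockout replicate 1, where it had its highest value, 5.91. Without that array Ddx4 differed by 0.14, against 0.37 with all arrays. Double knockout replicates 1 and 2 were the highest arrays for Ddx4 and replicate 3 the lowest. Among the members, Dppa3, Prdm1 and Tfap2c had the same order of the double knockout arrays. The share of all genes in that order was not counted.

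Promoters in RefSeq (build GRCm38.p6), each of 300 bases from 250 before to 50 after the gene's start, were at hand for 6 members. They made 8 windows in all, searched on both strands for 3 motifs. For Dppa3, Prdm14, Tfap2c and Dnd1 no window was at hand. The octamer that Pou5f1 binds, ATGCAAAT, was in 0 of the 8 windows and in 1.74% of all windows. The AP-2 motif GCCNNNGGC, the kind that Tfap2c binds, was in 4 of 8, those of Alpl, Kit and Nanos3, and in 16.6% of all windows. The 2 Kit windows overlap and share a match. Of the 2 windows of Pou5f1 itself, 1 held an AP-2 match and 0 held the octamer. An interferon response core, GAAA followed after any 2 bases by a second GAAA, was in 1 of 8, that of Ifitm3, and in 3.44% of all windows. Ifitm1, its neighbour on chromosome 7, had none in its window. The stretches below show the matches in capitals for the members whose array patterns parted from each other, Alpl with its AP-2 motifs at chr4:137796375-137796434 (minus strand), Kit at chr5:75574827-75574886 (plus strand) and Ifitm3 at chr7:141010716-141010742 (minus strand). Each stretch was chosen for either the AP-2 or the interferon motif, so an overlap between these motifs could not be read from them. A match describes letters only.
Alpl: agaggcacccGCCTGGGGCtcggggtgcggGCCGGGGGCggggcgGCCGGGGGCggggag
Kit: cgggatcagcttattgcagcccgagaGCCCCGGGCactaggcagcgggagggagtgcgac
Ifitm3: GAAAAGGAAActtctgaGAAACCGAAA
In double knockout replicate 1, Alpl and Kit differed from the single knockout mean by 0.40 and -0.18. Whether their AP-2 motifs bear on these values was not tested.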

How the data were processed

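RNA of 6 whole-embryo samples was hybridised to single-colour Affymetrix arrays. The authors deposited 45101 probe sets as log2 values from RMA, per the submitters' processing notes. The log2 scale was read from the values (2.64 to 15.17, array medians 5.794 to 5.816). No source used here gives the RMA version. RMA compresses differences near background, and the number of arrays limits precision.

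Of the probe sets, 34945 had 1 gene symbol (the platform's annotation), 932 had several and 9160 none listed, and 64 were controls. Only the first kind was used. The genotypes were compared by a two-sided moderated test in limma 3.58.1 under R 4.3.3, with p-values adjusted after Benjamini-Hochberg over 18193 genes and a threshold of 0.05. The test was run on simulated data with independent noise and no array standing apart. That run does not show how the test behaves with an array such as double knockout replicate 1. Groups came from the sample titles. Same-numbered arrays deviated from their group means with correlations of 0.094, -0.037 and -0.130, so the numbers were not used as pairs.

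The members and lists were chosen with earlier results of these data known. All members were named, and from each other list the genes past the threshold or, failing these, the 2 of smallest unadjusted p. Some further genes of these lists were named after their values were seen. Alternatives were the replicate block, a variance trend, dim genes left out, all probe sets, mean probe sets, a second normalization, median centring, a threshold of 0.1 and leaving out each array.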

Additional observations from a re-analysis of the deposited data

How the results depend on the processing

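In each alternative tried, 0 germ cell genes were called, also when leaving out each array in turn. Their median difference, 0.12 with all arrays, ran from 0.05 to 0.15 when single arrays were left out and from 0.10 to 0.14 otherwise. The number of all genes called, 1 with all arrays, was 0 with the mean of the probe sets, 2 when all probe sets were tested (both of Fzd2), and 0 to 1 when single arrays were left out. With the replicate number as a block, 1 gene and 0 germ cell genes were called, and the block changed no call at the adjusted threshold. The numbers were not taken to pair the arrays: deviations correlated best between same-numbered arrays for replicate 1 (0.094) but not for replicates 2 and 3 (-0.037 and -0.130). The direction of differences close to 0 turned in several settings, and the cause was not tested. Alpl, at -0.01, was 0.0022 after a second quantile normalization and ran from -0.21 (without double knockout replicate 1) to 0.15 (without double knockout replicate 2) when single arrays were left out, with 0.033 without double knockout replicate 3 and 0.044 without single knockout replicate 1. Kit, at 0.03, was -0.034 with the mean of its probe sets and -0.062 without double knockout replicate 3. Tfap2c, at 0.12, ran from -0.15 without double knockout replicate 1 to 0.26 without double knockout replicate 3, and Dnd1, at 0.05, was -0.0051 without single knockout replicate 3. Prdm14 is limited by its dim signal. Dppa3 and Dnd1, with means of 5.16 and 6.09 over all arrays, also read below the median gene (7.1).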
